A study of Mus musculus with 9 samples.

Results

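The 43 genes described here encode the enzymes of glycolysis, the enzymes that decide the fate of pyruvate, the subunits of the hypoxia-inducible factor (HIF), the proteins that sense oxygen and remove HIF, and a set of genes known to be induced in hypoxia. They were chosen by name. A gene's own probe sets were those annotated to its symbol alone, and the one with the highest mean over 9 arrays stood for the gene. Of the 43 genes, 40 had such a probe set and 36 had a level of at least log2 4 on 3 or more of the 9 arrays and were tested, as were 9432 of 18194 genes in all (51.8%). Gpi1, Eno1 and Bnip3l lacked a probe set of their own and were not analysed here. Pfkp, Epas1, Car9 and Adm were on the array but below this level. Adm came nearest of these 4, with 3.88 on its highest and 2.98 on its third-highest array, and Pfkfb4, at 4.39 on its third-highest, was the lowest gene that passed.

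Glycolysis breaks glucose down to pyruvate, and pyruvate is either reduced to lactate or passed to the mitochondria by pyruvate dehydrogenase. HIF is a pair of proteins, an alpha subunit that is hydroxylated and degraded when oxygen is at hand and a stable beta subunit, and it switches on glycolytic enzymes, angiogenic factors and its own inhibitors in hypoxia. In macrophages, inflammatory stimuli such as lipopolysaccharide (LPS, an endotoxin from the outer membrane of Gram-negative bacteria) are known to raise the HIF-1 alpha transcript and glycolysis. The intestinal epithelium normally lives at low oxygen, and HIF is active in it.

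Transcript levels came from m-ICcl2, an epithelial line of mouse small intestine (strain C57BL/6) that was derived from fetal tissue and carries the transgene SV40 large T antigen. All 3 conditions share this line and transgene, so every result is from 1 immortalised line. Cells were unstimulated, exposed to LPS at 100 ng/mL for 6 h, or exposed for 6 h and then kept in medium without LPS for 90 h, which puts them 96 h after LPS was first added; the series' design calls these last cells tolerant. Each condition has 3 arrays labelled as biological replicates. The labels do not say that these came from separate cultures, and p-values measure only the spread between these arrays. No label gives the time for which unstimulated cells were cultured, so in tolerant cells earlier LPS and time in culture cannot be told apart. In RNA from whole cultures, fewer cells of a type and less RNA per cell cannot be told apart either.

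The array medians over the tested genes lay between log2 7.62 and 7.84, and precision is limited by having 3 arrays a group. Replicate 1 stood apart in all 3 conditions, with a 3' minus 5' difference of the Actb control probe sets of 0.40 to 0.72 against 1.02 to 1.38 on the other 6 arrays. The same difference of the Gapdh control probe sets overlapped, at -0.20 to -0.06 for replicate 1 and -0.24 to -0.16 on the others. Of 10 epithelial markers, Cdh1, Krt19, Cldn7, Cdx1 and Cdx2 were below log2 4 on every array, and Krt8, Krt18, Vil1 and Tjp1 were above it on all 9. None of 10 fibroblast and smooth muscle markers or 8 endothelial markers reached log2 4 on any array. Of 10 leukocyte markers, Ptprc, Adgre1, Itgam, Lyz2, Cd3e, Cd79a and S100a8 never reached it. Csf1r, Cd68 and Cd14 were above it on all 9 arrays, at log2 7.97 to 11.20, 4.85 to 9.73 and 7.38 to 8.61.

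HIF binds the letters ACGTG or GCGTG, the core of the hypoxia response element. The promoters shown are those of the 4 genes with the largest differences among those called in both comparisons with the tolerant cells. One of them, Pfkfb4, reached log2 4 on the tolerant arrays alone and is given as a description. Each is the 250 bases before the RefSeq start site on GRCm38.p6, read 5′ to 3′ on the gene's own strand, and capitals mark ACGTG or GCGTG on either strand, so that CACGT and CACGC are the reverse-strand forms. Hk2 lies at chr6:82774455-82774704 on the minus strand, Ankrd37 at chr8:45999851-46000100 on the minus strand, Egln3 at chr12:54203875-54204124 on the minus strand and Pfkfb4 at chr9:108991652-108991901 on the plus strand.
Hk2: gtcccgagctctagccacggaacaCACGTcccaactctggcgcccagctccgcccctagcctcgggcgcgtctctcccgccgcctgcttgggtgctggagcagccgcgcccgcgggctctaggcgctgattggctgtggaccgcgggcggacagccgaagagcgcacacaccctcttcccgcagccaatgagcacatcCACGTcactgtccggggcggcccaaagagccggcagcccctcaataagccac
Ankrd37: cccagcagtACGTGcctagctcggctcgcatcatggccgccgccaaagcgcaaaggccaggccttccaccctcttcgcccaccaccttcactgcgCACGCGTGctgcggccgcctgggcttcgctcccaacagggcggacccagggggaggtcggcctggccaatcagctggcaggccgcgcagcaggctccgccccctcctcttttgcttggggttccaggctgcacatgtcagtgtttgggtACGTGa
Egln3: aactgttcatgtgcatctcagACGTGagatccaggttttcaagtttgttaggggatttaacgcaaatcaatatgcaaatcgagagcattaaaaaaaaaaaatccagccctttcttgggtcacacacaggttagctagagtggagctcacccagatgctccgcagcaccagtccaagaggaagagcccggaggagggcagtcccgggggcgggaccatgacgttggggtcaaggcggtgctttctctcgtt
Pfkfb4: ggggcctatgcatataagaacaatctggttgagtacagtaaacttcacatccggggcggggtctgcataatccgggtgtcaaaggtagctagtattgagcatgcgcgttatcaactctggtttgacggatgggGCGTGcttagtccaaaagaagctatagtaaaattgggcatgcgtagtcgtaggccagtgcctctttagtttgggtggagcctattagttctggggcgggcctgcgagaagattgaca

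The Hk2 promoter holds ACGTG in reverse at 226 and at 52 bases before the start. Ankrd37 holds ACGTG on the forward strand at 241 and at 6 bases before the start, and GCGTG at 155 in reverse and at 152 forward, where both matches overlap in 1 run of capitals. Egln3 holds 1 ACGTG at 229 bases and Pfkfb4 holds 1 GCGTG at 117 bases, both forward. At least 1 of the motifs occurred in 75.0% of the 60 promoters of 40 listed genes, in 57.9% of the 9942 promoters of all tested genes and in 38.6% of all 32817 promoters of this length. The share with ACGTG was 41.7% for the listed genes, 22.5% for all tested genes and 16.6% for all promoters, and the share with GCGTG was 51.7%, 46.6% and 28.1%. Among the listed genes, the 13 promoters of 9 called genes held either motif in 76.9% of cases and the 40 promoters of the 26 tested but uncalled genes in 72.5%. ACGTG, with or without GCGTG, was in 61.5% and 40.0% of these promoters, and GCGTG, with or without ACGTG, in 53.8% and 47.5%. Pfkfb4 is among the 9 called genes. These small sets were not tested against each other, and a match is a run of letters, not a bound site. Epas1, Bnip3l and Ndrg1 had no promoter entry.

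The genes were compared between conditions with limma, and a gene was called at a Benjamini-Hochberg adjusted p under 0.05 over all 9432 tested genes. After 6 h of LPS limma without a replicate block called none of the 36 genes, where 0.0636% of all tested genes were. At an unadjusted p under 0.05, 3 of the 36 were higher and 3 lower, together 16.7% against 22.9% of all genes. In the tolerant cells 7 genes were higher than in unstimulated cells and 2 lower, beside 14.0% and 12.2% of all genes in these directions. The share called, 25.0% of the 36, lay close to the 26.2% of all genes. Against 6 h of LPS, 8 genes were higher in the tolerant cells and 1 was lower, beside 7.10% and 6.02% of all genes, so that 25.0% of the 36 and 13.1% of all genes were called. Pfkfb4 was tested only through its tolerant arrays, so that its inclusion required a difference. Without it and the other such genes, 6 of 35 rose and 2 fell against unstimulated cells (22.9% called, against 25.9% of 9380 genes), and 7 rose and 1 fell against 6 h (22.9%, against 12.7%). Both comparisons with the tolerant cells share the tolerant arrays, and 8 genes, Pfkfb4 among them, were called in both. Without unstimulated replicate 2 only 4 genes were called as higher than in unstimulated cells. The genes called as lower numbered 1 without any 1 of the unstimulated or tolerant arrays and 4 without 6 h LPS replicate 1. Against 6 h, 4 genes were higher when 6 h LPS replicate 2 or tolerant replicate 1 was left out, 5 in the absence of tolerant replicate 2 and 3 in that of tolerant replicate 3, and none was lower without 6 h LPS replicate 2 or 3 or any tolerant array.

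The median log2 difference of the 36 genes was -0.18 after 6 h of LPS against -0.11 over all tested genes. For tolerant against unstimulated cells the medians were -0.01 and -0.07, and between tolerant cells and 6 h they came to 0.14 and 0.01. After 6 h of LPS 29 of the 36 differences (80.6%) were below 0, as were 59.3% of those of all tested genes. After quantile normalization 28 were, beside 57.4% of all genes, and after centring of each array on its median 28, beside 56.6%. The 10 genes called in at least 1 comparison were Hk2, Pfkm and Pfkfb4 at the upper steps of glycolysis, the HIF hydroxylases Egln3 and Hif1an, and 5 hypoxia-induced genes, as the plot of all 36 differences shows.

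With the replicate number as a block, which allows for a shift of each replicate number, more genes were called throughout the array. After 6 h of LPS 3 genes were then higher (Hif1a, Pdha1 and Kdm3a) and 4 lower (Pfkm, Aldoc, Pdk2 and Ndrg1), beside 11.6% and 12.5% of all genes (24.0% in either direction). For tolerant against unstimulated cells the block gave 9 higher and 9 lower, beside 22.7% and 25.9% of all genes (48.6% in either direction). For tolerant against 6 h it gave 11 higher and 1 lower, beside 16.0% and 15.7% (31.6% in either direction). All 9 genes called without the block in each comparison with the tolerant cells were also called with it.

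**Figure D1:**
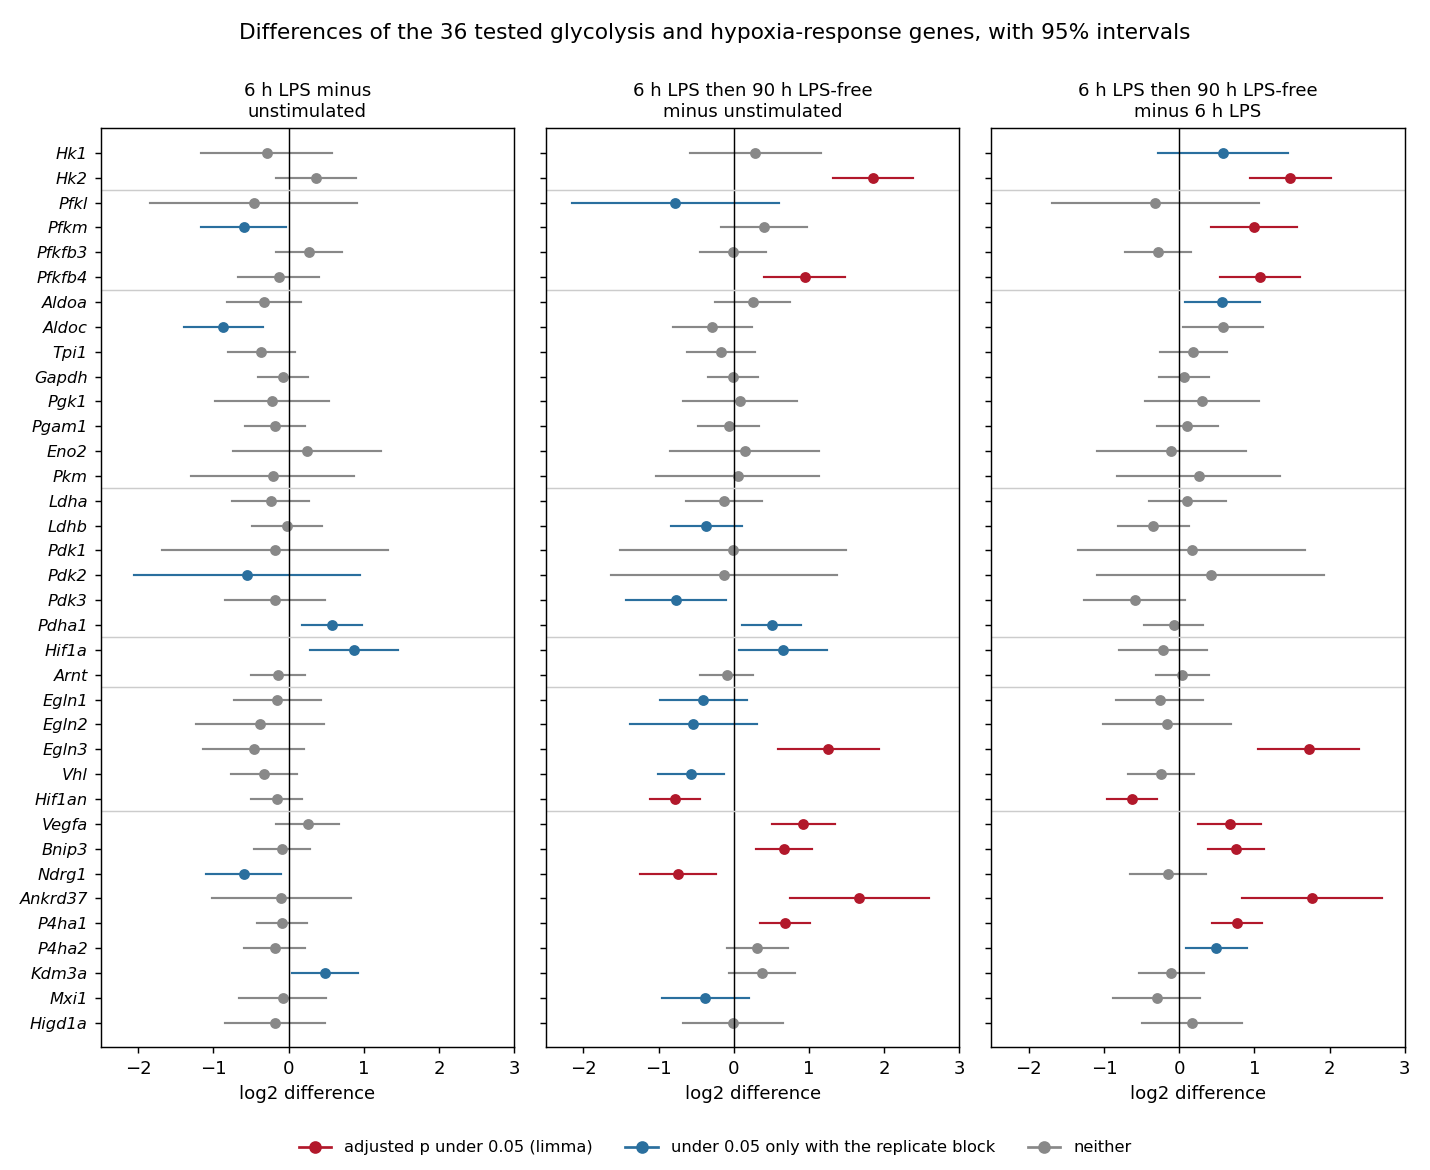
Log2 differences of the 36 tested genes in the 3 comparisons, with 95% intervals from limma. Red marks an adjusted p under 0.05, blue one reached only in the fit with a replicate block, and grey neither; grey lines part the functional groups. The red points are absent from the left panel and lie mainly in the lower rows, at the hypoxia-response genes.

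Hif1a encodes HIF-1 alpha, the oxygen-regulated subunit. Hif1a read log2 9.60, 10.01 and 10.50 on unstimulated replicates 1, 2 and 3, 10.83, 11.17 and 10.71 after 6 h of LPS and 10.39, 10.76 and 10.92 on the tolerant arrays. On this probe set all 3 arrays at 6 h were above all 3 unstimulated arrays, while tolerant replicate 1 lay below unstimulated replicate 3. The difference at 6 h was 0.87 (SE 0.26, 1.82-fold), with an adjusted p of 0.123 without and 0.0327 with the block. The tolerant cells differed from unstimulated cells by 0.66, with an adjusted p of 0.0924 and, with the block, 0.0266. Leaving out unstimulated replicate 3, the highest array of its group, gave a difference of 0.89 and an adjusted p of 0.0369 for this comparison. Its other 2 probe sets at the level minimum read higher at 6 h by 1.21 and 1.37. On the one with the difference of 1.37 the groups overlapped, with 6 h LPS replicate 3 at 5.62 and unstimulated replicate 1 at 5.98.

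Arnt encodes the constant beta subunit, HIF-1 beta. Arnt read 5.91, 6.14 and 6.12 on the unstimulated arrays, 5.75, 6.00 and 6.00 at 6 h and 5.81, 6.00 and 6.08 on the tolerant arrays, in the same order of replicates as everywhere here. The 3 groups overlapped, and in each of them replicate 1 was lowest. The largest of its 3 differences was -0.14 at 6 h, with a 95% interval of -0.49 to 0.22. Epas1, which encodes HIF-2 alpha, was at log2 2.28 to 2.32 on all 9 arrays, below the level minimum.

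Egln1, Egln2 and Egln3 encode the prolyl hydroxylases that mark HIF alpha for degradation, Vhl the ubiquitin ligase component that recognises the mark, and Hif1an the asparaginyl hydroxylase that blocks HIF's transactivation. In the tolerant cells Egln3 rose and Hif1an fell. Egln3 read 9.55, 8.88 and 8.85 on the unstimulated arrays, 8.94, 8.29 and 8.66 at 6 h and 10.88, 10.18 and 9.99 on the tolerant arrays. The lowest tolerant array was above the highest of the other 6, which was unstimulated replicate 1. Egln3 was 2.39-fold higher in tolerant than in unstimulated cells (log2 1.26, SE 0.30, adjusted p = 0.0149) and 3.30-fold higher than at 6 h (log2 1.72, adjusted p = 0.00624). For tolerant against unstimulated cells, leaving out unstimulated replicate 2 gave an adjusted p of 0.0607 and a log2 difference of 1.15, and testing all genes without a filter gave 0.0503. The call against 6 h held under all 21 alternatives. Egln3 is itself a known HIF target, and its promoter with 1 ACGTG is printed above.

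Hif1an read 7.23, 6.99 and 7.12 on the unstimulated arrays, 7.00, 6.92 and 6.94 at 6 h and 6.37, 6.16 and 6.45 on the tolerant arrays. The 3 tolerant values were the lowest of the 9, and the other 2 groups overlapped. Hif1an fell by 0.78 on the log2 scale against unstimulated cells (SE 0.15, 1.72-fold, adjusted p = 0.00588), a call that held under all 20 alternatives that gave a value. Against 6 h of LPS it fell by 0.62 (adjusted p = 0.0249). For this second comparison, leaving out 6 h LPS replicate 2 or 3, or tolerant replicate 1, 2 or 3, 1 array at a time, gave an adjusted p of 0.0529 to 0.110 and a log2 difference of -0.69 to -0.54. A separate fit on the 6 arrays compared gave an adjusted p of 0.0606.

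The remaining sensors were called only with the block, and only as lower in tolerant than in unstimulated cells. Vhl read 6.85 to 7.12 on the unstimulated and 6.20 to 6.72 on the tolerant arrays, without overlap, a difference of -0.57 with an adjusted p of 0.0582 and, with the block, 0.0340. Egln1 ranged over 8.07 to 8.91 and 7.86 to 8.26 in these groups and differed by -0.41 (adjusted p 0.278, with the block 0.0377). Its second probe set differed by 0.11, in the other direction. Egln2 ranged over 8.57 to 9.39 and 7.96 to 9.11 and differed by -0.54 (adjusted p 0.330, with the block 0.0182). In both, replicate 1 was the highest array of every condition and the groups overlapped.

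Of the 9 tested genes known to be induced in hypoxia, 4 rose and 1 fell in tolerant against unstimulated cells, and the same 4 rose against 6 h of LPS. These were 55.6% and 44.4% of the 9, beside 26.2% and 13.1% of all tested genes called in either direction. Ankrd37, an ankyrin-repeat protein and HIF target, had the largest change. Ankrd37 read 4.42, 5.56 and 5.41 on the unstimulated arrays, 4.37, 5.16 and 5.56 at 6 h and 6.22, 7.22 and 6.95 on the tolerant arrays. Replicate 1 was the lowest array of each condition, and the lowest tolerant array was still above the highest of the other 6. The rise was 3.18-fold over unstimulated cells (log2 1.67, SE 0.41, adjusted p = 0.0170) and 3.40-fold over 6 h (log2 1.77, adjusted p = 0.0224). Against unstimulated cells, leaving out unstimulated replicate 1, or tolerant replicate 2 or 3, 1 array at a time, gave an adjusted p of 0.0507 to 0.0695 and a log2 difference of 1.32 to 1.60. Against 6 h, leaving out 6 h LPS replicate 1 or 2, or tolerant replicate 2 or 3, 1 array at a time, gave an adjusted p of 0.0550 to 0.0859 and a log2 difference of 1.44 to 1.83. With no filter on level the adjusted p was 0.0656 and 0.0823.

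Vegfa encodes vascular endothelial growth factor A. Vegfa read 8.23, 7.90 and 8.18 on the unstimulated arrays, 8.61, 8.31 and 8.15 at 6 h and 9.23, 8.89 and 8.96 on the tolerant arrays. The tolerant arrays did not overlap the others, and the 6 h arrays overlapped the unstimulated ones. It was 1.90-fold higher in tolerant than in unstimulated cells (log2 0.92, SE 0.18, adjusted p = 0.00722). Over 6 h of LPS the rise was 1.59-fold (log2 0.67, adjusted p = 0.0441), and this call was lost in 13 of 21 alternatives. There, leaving out unstimulated replicate 1, 2 or 3, or 6 h LPS replicate 2 or 3, or tolerant replicate 1, 2 or 3, 1 array at a time, gave an adjusted p of 0.0509 to 0.136 and a log2 difference of 0.57 to 0.74. Without a filter on level the adjusted p was 0.0590, after further quantile normalization 0.0532, and in a separate fit on 6 arrays 0.0843. The mean of both probe sets gave 0.162 against unstimulated cells and 0.297 against 6 h. Its second probe set, with the larger spread over the arrays, differed by 1.01 and 1.00 in these comparisons but gave adjusted p-values of 0.420 and 0.510.

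Bnip3 encodes a mitophagy receptor. Bnip3 read 9.91, 9.86 and 9.90 on the unstimulated arrays, 9.51, 9.87 and 10.02 at 6 h and 10.62, 10.57 and 10.49 on the tolerant arrays. Its tolerant arrays lay close together and above the other 6. The rise was 1.59-fold over unstimulated cells (log2 0.67, adjusted p = 0.0177) and 1.69-fold over 6 h (log2 0.76, adjusted p = 0.0175). Against unstimulated cells, leaving out unstimulated replicate 2, or tolerant replicate 2, 1 array at a time, gave an adjusted p of 0.0656 to 0.0665 and a log2 difference of 0.65 to 0.66. Against 6 h, leaving out tolerant replicate 1, 2 or 3, 1 array at a time, gave an adjusted p of 0.0537 to 0.0675 and a log2 difference of 0.73 to 0.80. A separate fit on 6 arrays gave 0.0538 for the comparison with 6 h.

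P4ha1 encodes a collagen prolyl 4-hydroxylase subunit. P4ha1 read 8.90, 8.79 and 8.89 on the unstimulated arrays, 8.94, 8.62 and 8.76 at 6 h and 9.56, 9.59 and 9.48 on the tolerant arrays, again without overlap of the tolerant arrays with the rest. It rose 1.61-fold over unstimulated cells (log2 0.68, SE 0.15, adjusted p = 0.00967) and 1.71-fold over 6 h (log2 0.77, adjusted p = 0.00949). No single left-out array ended these calls. The probe set with the largest spread differed by 0.75 and 1.07, with adjusted p-values of 0.172 and 0.0970. P4ha2, the sister subunit, was called only with the block and only against 6 h, by 0.50 (adjusted p 0.109, with the block 0.0269).

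Ndrg1, a stress-responsive gene known to rise in hypoxia, went the other way. Ndrg1 read 12.57, 12.80 and 12.76 on the unstimulated arrays, 11.60, 12.33 and 12.42 at 6 h and 11.91, 11.94 and 12.06 on the tolerant arrays. On this probe set both LPS groups lay below all 3 unstimulated arrays and overlapped each other. It fell by 0.74 on the log2 scale in tolerant against unstimulated cells (SE 0.22, 1.67-fold, adjusted p = 0.0377). This call was lost in 9 of 21 alternatives, where leaving out unstimulated replicate 1, 2 or 3, or tolerant replicate 1, 2 or 3, 1 array at a time, gave an adjusted p of 0.0599 to 0.116 and a log2 difference of -0.81 to -0.70. The adjusted p was 0.0782 without a filter, 0.0908 on the mean of its probe sets and 0.344 on the probe set with the largest spread. At 6 h the difference was -0.60, with an adjusted p of 0.163 and, with the block, 0.0399. All 5 of its probe sets were lower on average in the tolerant than in the unstimulated cells, by 0.74 to 1.02. On each probe set other than the one used, 6 h LPS replicate 1 read above unstimulated replicate 3. Tolerant replicate 1 read above unstimulated replicate 3 on some of them, at 10.76 against 10.26 and 11.19 against 10.35, and below it on the rest.

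Kdm3a, a histone demethylase, read 7.88 to 8.44 on the unstimulated arrays and 8.48 to 8.60 at 6 h, and was called as higher at 6 h only with the block (0.48, adjusted p 0.181 without and 0.0455 with it). Mxi1, a Myc antagonist, differed by -0.38 in tolerant against unstimulated cells and was called as lower only with the block (adjusted p 0.315 and 0.0395). Higd1a, a mitochondrial protein, differed by -0.18, -0.01 and 0.17 in the 3 comparisons on its brightest probe set. Its second probe set differed by -0.91 and -0.87 in the comparisons with the tolerant cells. Car9, which encodes a carbonic anhydrase widely used as a marker of hypoxia, stayed at or below log2 2.16 on all 9 arrays. Adm, encoding adrenomedullin, read 2.98 to 3.88 on the tolerant arrays and 2.76 to 2.83 on the unstimulated arrays, all below the level minimum.

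**Figure D2:**
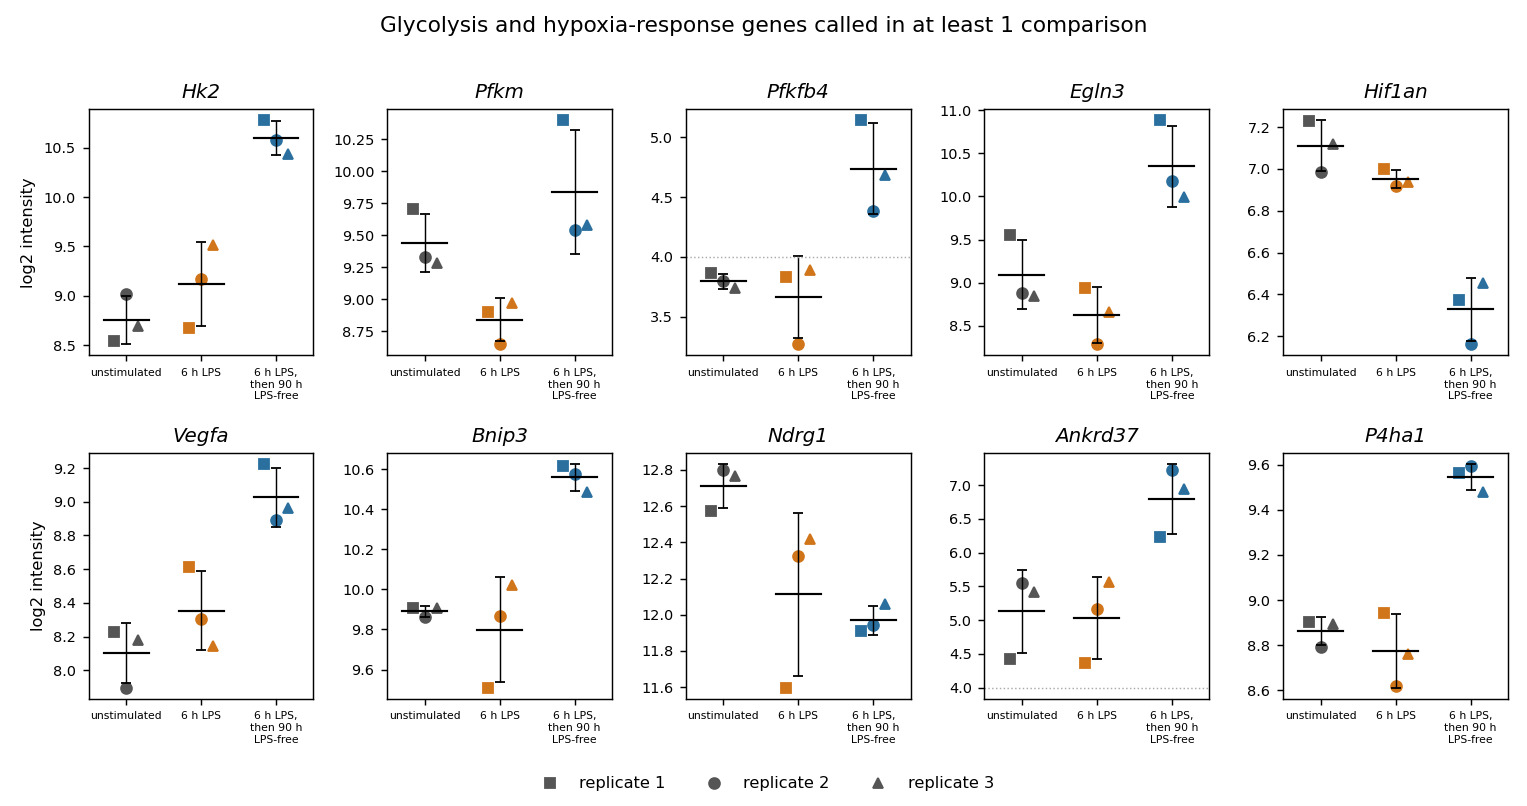
Log2 intensity on each array for the 10 genes called in at least 1 comparison, by condition, with the mean and SD of 3 arrays as bar and whiskers; squares, circles and triangles are replicates 1, 2 and 3, and a dotted line marks log2 4. In Hk2, Pfkfb4, Egln3, Vegfa, Bnip3, Ankrd37 and P4ha1 the 3 tolerant arrays lie above the other 6, and in Hif1an below.

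Hexokinases phosphorylate glucose on its entry into glycolysis. Hk2, the inducible form, had the largest change of the glycolytic genes. Hk2 read 8.55, 9.02 and 8.69 on the unstimulated arrays, 8.68, 9.17 and 9.52 at 6 h and 10.78, 10.58 and 10.44 on the tolerant arrays. The tolerant arrays were closely grouped and above all others, while the 6 h arrays overlapped the unstimulated ones. It rose 3.60-fold over unstimulated cells (log2 1.85, SE 0.24, adjusted p = 0.00105) and 2.79-fold over 6 h (log2 1.48, adjusted p = 0.00435). Over 21 alternatives these differences ranged from 1.65 to 1.98 and from 1.17 to 1.68, and neither call was lost. Its promoter with ACGTG at 2 places is printed above.

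Hk1, the constitutive form, read 9.86 to 10.74 on the unstimulated, 9.55 to 10.60 on the 6 h and 10.14 to 11.14 on the tolerant arrays. These groups overlapped, and replicate 1 was above the mean of replicates 2 and 3 by 0.79 to 1.02 in each condition. Its difference of 0.58 between tolerant and 6 h arrays had an adjusted p of 0.386 and, with the block, 0.00771.

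Phosphofructokinase commits glucose to glycolysis, and the bifunctional enzymes encoded by Pfkfb3 and Pfkfb4 set the level of its activator fructose 2,6-bisphosphate. Pfkfb4 read 3.86, 3.79 and 3.74 on the unstimulated arrays, 3.84, 3.27 and 3.89 at 6 h and 5.14, 4.39 and 4.68 on the tolerant arrays. It was above log2 4 on the tolerant arrays alone and passed the level rule through them, so that its inclusion required a difference. Measured against log2 4, it was at least 1.67-fold higher in the tolerant cells than in either other group, which is a description and no test. Pfkfb3 read 7.78 to 8.56 over all 9 arrays and was called in no comparison, and its second probe set differed by 0.59 in tolerant against unstimulated cells where the first differed by -0.01.

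Pfkm encodes the muscle-type phosphofructokinase. Pfkm read 9.70, 9.33 and 9.28 on the unstimulated arrays, 8.90, 8.65 and 8.97 at 6 h and 10.40, 9.54 and 9.58 on the tolerant arrays. The 6 h arrays were the lowest of the 9, and the tolerant arrays overlapped the unstimulated ones. It was 1.99-fold higher in tolerant cells than at 6 h (log2 1.00, SE 0.25, adjusted p = 0.0314), a call lost in 8 of 21 alternatives. There, leaving out unstimulated replicate 2, or 6 h LPS replicate 1, 2 or 3, or tolerant replicate 1 or 3, 1 array at a time, gave an adjusted p of 0.0537 to 0.0990 and a log2 difference of 0.72 to 1.13. The adjusted p was 0.0801 without a filter and 0.0674 in a separate fit on 6 arrays. The difference of -0.60 between 6 h and unstimulated cells had an adjusted p of 0.200 and, with the block, 0.0449. Pfkl, the liver type, read 8.13 to 9.53 on the unstimulated and 7.35 to 8.69 on the tolerant arrays, and its difference of -0.78 was called only with the block (adjusted p 0.384 and 0.0149). Pfkp, the platelet type, was at or below log2 2.58 on every array.

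None of the 8 tested genes of the steps from aldolase to pyruvate kinase (Aldoa, Aldoc, Tpi1, Gapdh, Pgk1, Pgam1, Eno2 and Pkm) was called in any of the 3 comparisons by limma without the block. Of all tested genes 0.0636%, 26.2% and 13.1% were called in these comparisons. At an unadjusted p under 0.05 the numbers of the 8 were 1 at 6 h, 0 for tolerant against unstimulated and 2 for tolerant against 6 h. Of all tested genes 22.9%, 39.0% and 26.7% had such a p. The medians of the 8 genes were -0.21, 0.02 and 0.23 in these comparisons. After 6 h of LPS 7 of the 8 differences were below 0, and between 6 h and tolerant cells 7 of the 8 were above 0, also after quantile normalization or median centring. Of all tested genes 59.3% were below 0 in the first of these and 50.8% above 0 in the second, and 57.4% and 48.1% after quantile normalization and 56.6% and 45.5% after median centring. Gapdh, measured by the control probe set at its 5' end, read 13.67 to 13.99 over the 9 arrays and differed by -0.01 between tolerant and unstimulated cells (95% interval -0.35 to 0.32). For Pkm, with replicate 1 far above the others, the interval of the same difference ran from -1.03 to 1.14, so that a 2-fold change in either direction lay within it. Aldoc read 9.26 to 9.48 on the unstimulated and 8.13 to 8.92 on the 6 h arrays, a difference of -0.87 (adjusted p 0.117, with the block 0.0380). Aldoa differed by 0.58 between tolerant and 6 h arrays (adjusted p 0.127, with the block 0.00838), with 12.34 to 12.92 against 11.86 to 12.28 and no overlap. Over its 5 probe sets this difference ran from 0.06 to 0.69, and on some of the others the 2 groups overlapped. Tpi1, Pgk1, Pgam1 and Eno2 were called in no comparison with or without the block.

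At the branch of pyruvate, none of Ldha, Ldhb, Pdk1, Pdk2, Pdk3 and Pdha1 was called by limma without the block. At an unadjusted p under 0.05 the numbers were 1, 2 and 0 in the 3 comparisons, beside 22.9%, 39.0% and 26.7% of all tested genes. The shares of all tested genes called without the block were 0.0636%, 26.2% and 13.1%. Ldha and Ldhb encode the subunits of lactate dehydrogenase. Ldha differed by -0.13 between tolerant and unstimulated cells (95% interval -0.64 to 0.38) and by -0.24 after 6 h. Ldhb read 12.51 to 12.96 on the unstimulated and 12.19 to 12.47 on the tolerant arrays, a difference of -0.36 called only with the block (adjusted p 0.233 and 0.0390). Pdha1, the alpha subunit of pyruvate dehydrogenase, read 10.24 to 10.39 on the unstimulated arrays, 10.66 to 11.15 at 6 h and 10.64 to 10.97 on the tolerant arrays. On this probe set both LPS groups were thus above every unstimulated array, by 0.57 and 0.50 on average. The adjusted p-values were 0.127 and 0.0623 and, with the block, 0.0319 and 0.0102. The second probe set of Pdha1 differed by 0.22 at 6 h and by 0.68 in tolerant against unstimulated cells. There 6 h LPS replicate 3, at 9.49, lay below unstimulated replicates 1 and 2, at 9.67 and 9.57. The tolerant arrays were above every unstimulated array on it as well.

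Pdk1, Pdk2 and Pdk3 encode kinases that shut pyruvate dehydrogenase down. Pdk3 read 4.97 to 5.73 on the unstimulated and 4.45 to 4.69 on the tolerant arrays, without overlap, a difference of -0.77 (adjusted p 0.0859, with the block 0.0208). Pdk2 was called only with the block and only at 6 h, by -0.55 (adjusted p 0.641 and 0.0450). Pdk1, a HIF target in many cells, differed by -0.01 between tolerant and unstimulated cells, but its 95% interval of -1.52 to 1.49 was wide.

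**Figure D3:**
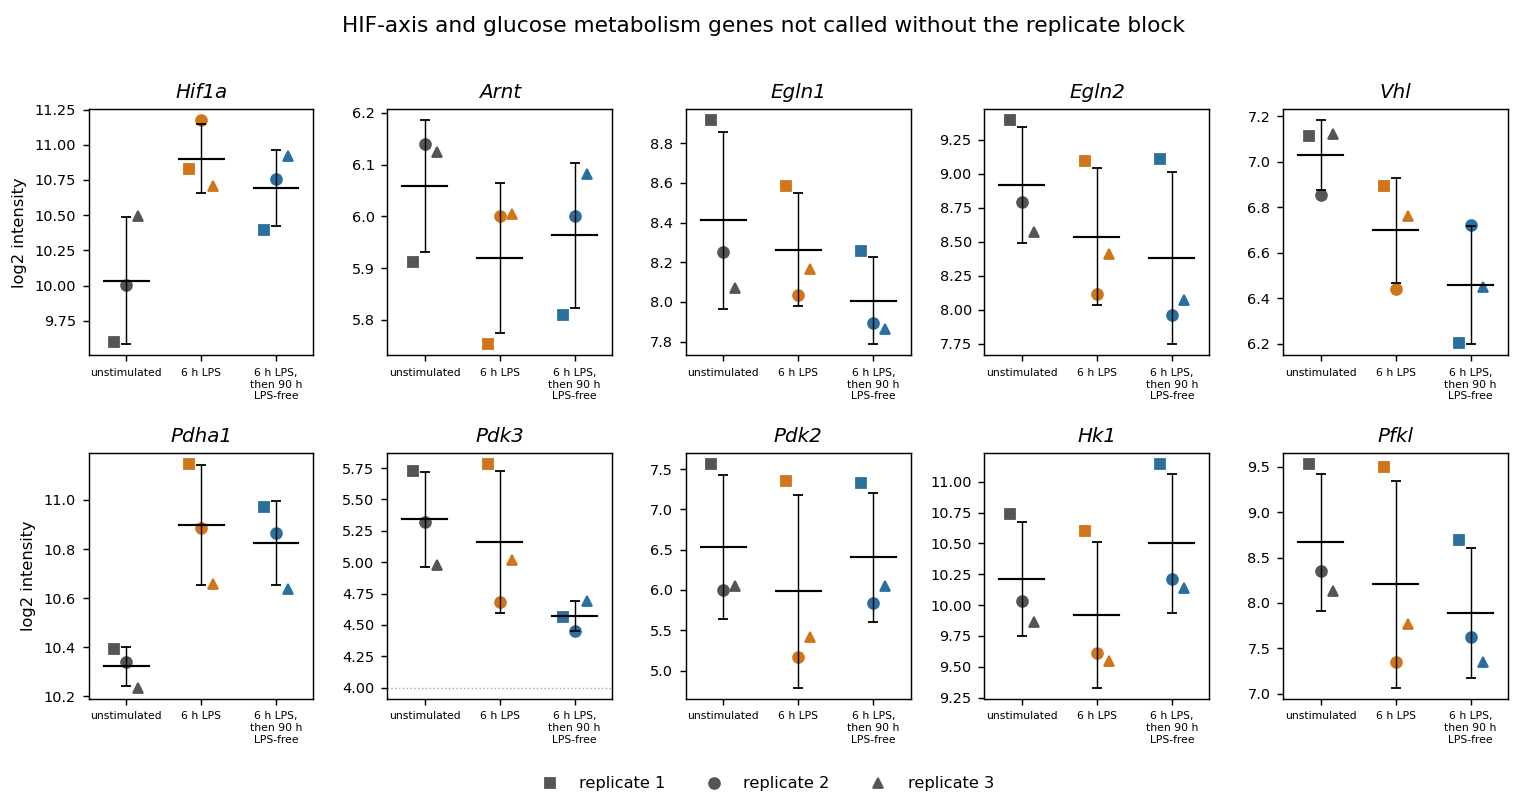
Log2 intensity on each array for 10 genes not called without the replicate block, by condition, with the mean and SD of 3 arrays as bar and whiskers; squares, circles and triangles are replicates 1, 2 and 3, and a dotted line marks log2 4. In Egln1, Egln2, Hk1, Pfkl and Pdk2 the square stands above the other symbols in every condition, and in Arnt below them.

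The genes with the widest intervals were among those with the largest offset of replicate 1. Replicate 1 was over 0.5 log2 units above the mean of replicates 2 and 3 in all 3 conditions for 6 of the 36 genes (16.7%, against 12.9% of all tested genes) and below it by as much for 4 (11.1%, against 6.19%). The mean offset over conditions was 1.66 for Pdk2, 1.48 for Pfkl, 1.17 for Pkm and 1.07 for Eno2. It was -1.67 for Pdk1, -0.97 for Ankrd37 and -0.77 for Pgk1. The labels do not say what replicate 1 shares, and the part of this offset in the results was not tested beyond the block and the fit without replicate 1. Without the 3 arrays of replicate 1, tolerant against unstimulated cells gave 8 higher and 4 lower genes, beside 1749 and 1859 of 9432 tested genes. In the same fit tolerant against 6 h gave 11 higher and 1 lower, beside 1056 and 1071 of all tested genes.

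**Figure D4:**
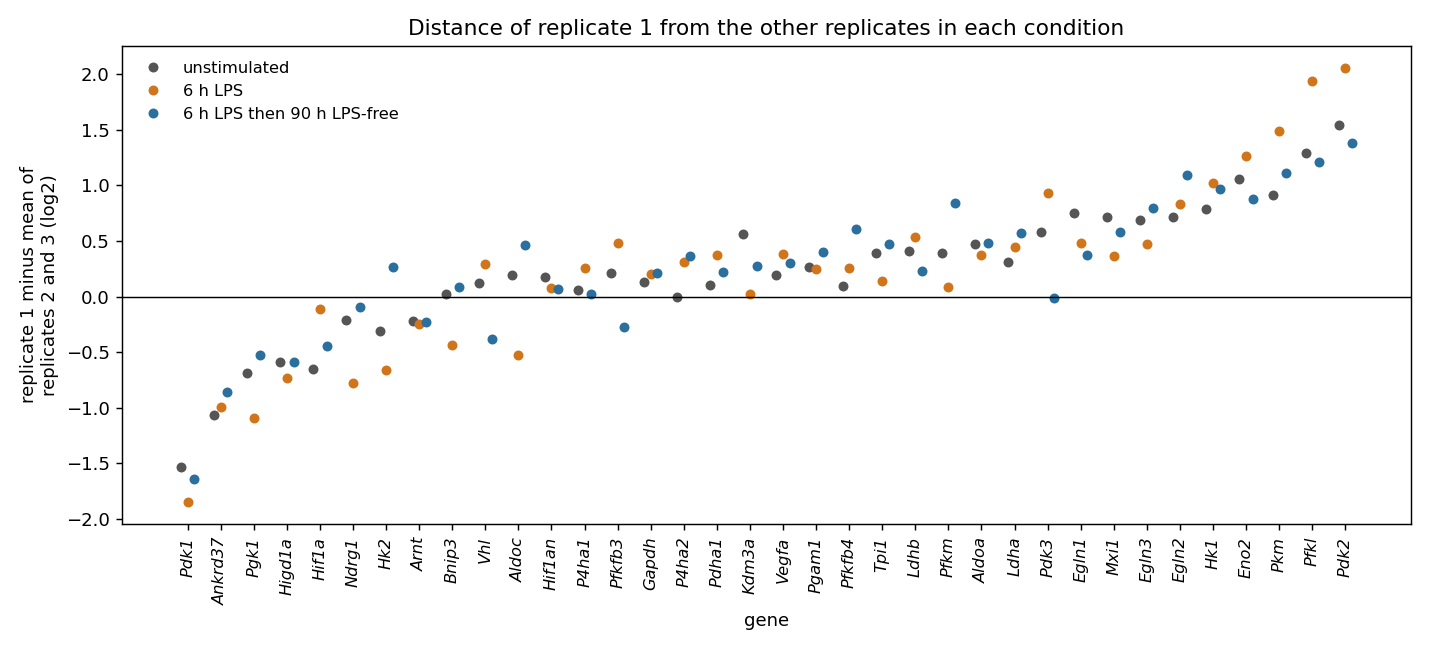
Replicate 1 minus the mean of replicates 2 and 3 on the log2 scale, for each of the 36 tested genes and each condition (colours), ordered by the mean offset. The offset runs from -1.67 for Pdk1 to 1.66 for Pdk2 and has the same sign in all 3 conditions for the genes at both ends.

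Of the 36 genes, 20 had more than 1 probe set at the level minimum, and these shared the direction of the difference in 14 of 20 genes at 6 h, 15 of 20 for tolerant against unstimulated cells and 14 of 20 for tolerant against 6 h. The median spread between probe sets of a gene was 0.20, 0.18 and 0.29 in the 3 comparisons. It exceeded 1.5-fold in none, 2 and 3 genes. The called genes with several probe sets (Egln3, Vegfa, P4ha1 and Ndrg1) kept their direction on all of them in the comparisons in which they were called. Pfkfb3 and Higd1a had the widest spread, 0.60 and 0.90 for tolerant against unstimulated cells.

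**Figure D5:**
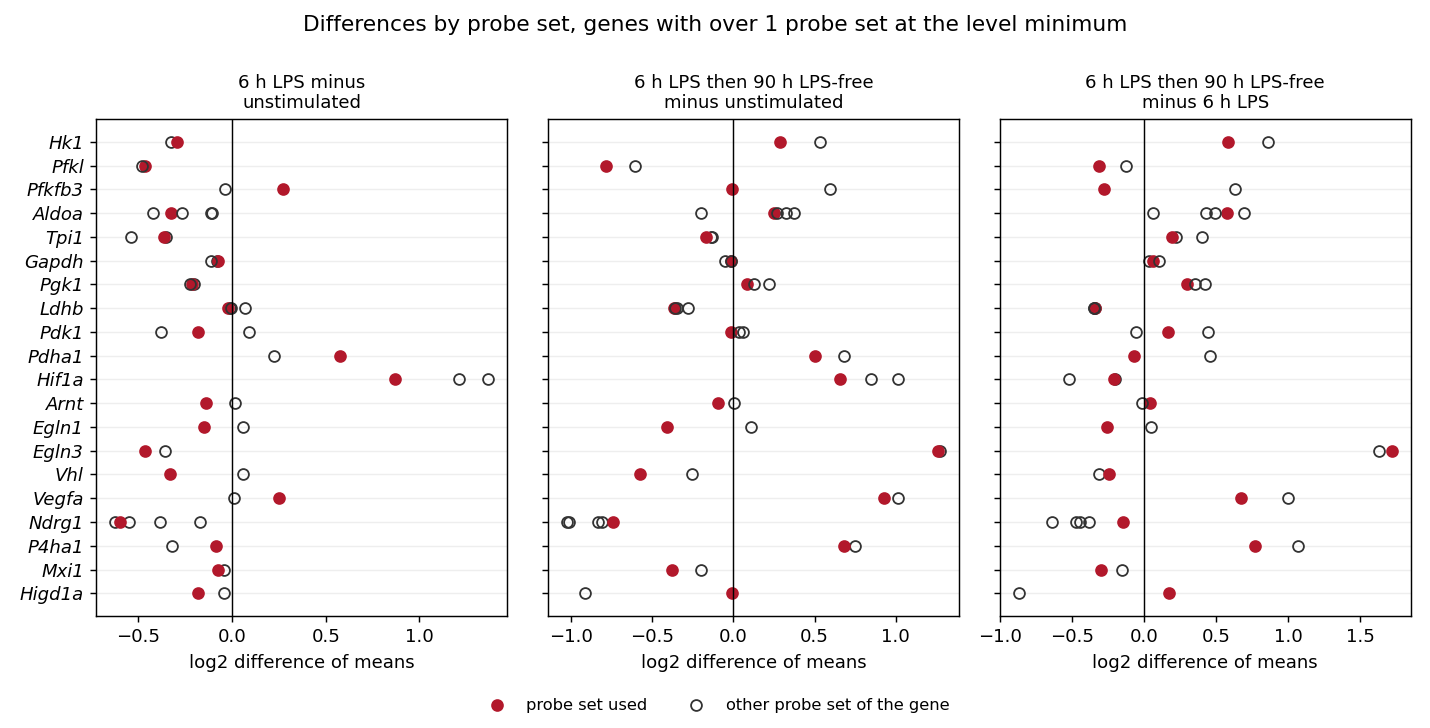
Log2 difference of means for every probe set at the level minimum, for the 20 genes with more than 1, in the 3 comparisons; filled points are the probe sets used. The points of Egln3 and P4ha1 lie close together right of 0 in the comparison of tolerant with unstimulated cells, while those of Pfkfb3 and Higd1a spread by 0.60 and 0.90.

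Other genes of these pathways were taken from lists of known function. Of 27 tested further genes known to be induced in hypoxia, 11 rose and 4 fell in tolerant against unstimulated cells (55.6% called, against 26.2% of all tested genes), with a median of 0.32 against -0.07 over all tested genes. The largest changes were in Anln (anillin, a cytokinesis protein, 2.21, adjusted p = 0.000361), Rora (a nuclear receptor, 1.97, adjusted p = 0.00251) and Bhlhe40 (a transcriptional repressor, 1.83, adjusted p = 0.000592). Against 6 h 5 rose and 2 fell (25.9% called, against 13.1% of all genes), with a median of 0.47 against 0.01, and the largest changes were in Tfrc (the transferrin receptor, -2.77, adjusted p = 0.00267), Slc2a1 and Bhlhe40 (2.15, adjusted p = 0.000362). Slc2a1, which encodes the glucose transporter GLUT1, was 5.10-fold higher in tolerant cells than at 6 h (adjusted p = 0.0222). Its difference from unstimulated cells was 1.52, with an adjusted p of 0.0682 and, with the block, 0.00345. With the block 13 of the 27 were higher and 6 lower in each of these comparisons, where 48.6% and 31.6% of all genes were called.

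Of 17 tested further enzymes of glycolysis and pyruvate, 4 rose and 1 fell in tolerant against unstimulated cells, and 1 rose against 6 h. The shares called, 29.4% and 5.88%, stood beside 26.2% and 13.1% of all tested genes. With the block 6 were higher and 4 lower, and 6 higher and 2 lower, beside 48.6% and 31.6% of all genes. Against unstimulated cells Eno3, the muscle enolase, fell by 1.00 (adjusted p = 0.00720). The largest rise there was in Dld, the E3 subunit of pyruvate dehydrogenase (0.98, adjusted p = 0.0328). Next came Pdk4, a further pyruvate dehydrogenase kinase (0.94, adjusted p = 0.00898). Pgm2 rose by 1.05 against 6 h (adjusted p = 0.00287). Of 7 pentose phosphate genes, Rpia (1.25, adjusted p = 0.00224) and Rpe (1.01, adjusted p = 0.00685), which interconvert pentose phosphates, rose in tolerant against unstimulated cells. In the same comparison Pgd, the oxidative 6-phosphogluconate dehydrogenase, fell by 0.88 (adjusted p = 0.00601). Rpia also rose by 1.39 against 6 h (adjusted p = 0.00194), so that 42.9% and 14.3% of the 7 were called in these comparisons, beside the same 26.2% and 13.1%. Of 8 genes of gluconeogenesis and glycogen, Gbe1, the glycogen branching enzyme, rose in both comparisons, by 0.70 and 0.53 (adjusted p = 0.00895 and 0.0436). It was the 1 gene called of the 8 (12.5% in each comparison, beside 26.2% and 13.1% of all tested genes). With the block 2 were higher and 2 lower against unstimulated cells (48.6% of all genes called) and 3 higher against 6 h (31.6%).

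Of 16 further regulators of the HIF pathway, 3 rose and 2 fell in tolerant against unstimulated cells (31.2% called, against 26.2% of all genes). Against 6 h limma called none of the 16, where 13.1% of all genes were called. An unadjusted p under 0.05 was found for 3 of the 16, beside 26.7% of all genes. With the block 4 were called, where 31.6% of all genes were. Among those called in tolerant against unstimulated cells, the largest changes were in Usp20, a deubiquitinase (-1.56, adjusted p = 0.0292), and Hsp90aa1, a chaperone (0.94, adjusted p = 0.0202). Next in that comparison was Cul2, the scaffold of the VHL ubiquitin ligase (0.71, adjusted p = 0.0483). After 6 h of LPS limma without the block called none of the 75 tested genes of these 5 lists, while 20 had an unadjusted p under 0.05 and 20 were called with the block, beside 22.9% and 24.0% of all genes.

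Some markers of cell type differed between the conditions. Of the 5 tested epithelial markers, Tjp1 and Krt18 were higher in tolerant than in unstimulated cells (adjusted p = 0.000922 and 0.0479) and than at 6 h (adjusted p = 0.0148 and 0.0127). Epcam, below log2 4 on all 6 other arrays, was at least 3.11-fold higher on the tolerant arrays but passed the level rule through them alone, so that this is no test. The log2 differences from unstimulated cells were 1.49 for Tjp1 and 0.66 for Krt18. The other 2 tested, Krt8 and Vil1, differed by -0.10 and -0.18 (adjusted p 0.817 and 0.515) and by -0.03 and 0.32 from 6 h (adjusted p 0.958 and 0.310). After 6 h of LPS no marker was called without the block. With it Tjp1 was higher by 0.60 (adjusted p 0.128 without and 0.0372 with the block), and Krt18 and Vil1 were lower, by -0.39 and -0.49 (adjusted p 0.301 and 0.161 without and 0.0488 and 0.0463 with it). The summed intensity of the 10 epithelial markers was 13650 to 18560 on the unstimulated, 12100 to 18100 on the 6 h and 17000 to 23220 on the tolerant arrays. Of the 3 tested leukocyte markers Cd68, a lysosomal protein, rose by 4.15 (adjusted p = 5.83e-06) and Csf1r fell by 1.95 (adjusted p = 0.0233) in tolerant against unstimulated cells. Cd68 was also higher than at 6 h, by 4.56 (adjusted p = 2.53e-06). With the block Csf1r was lower at 6 h than in unstimulated cells, by -0.47 (adjusted p 0.609 without and 0.0449 with it), and in tolerant cells than at 6 h, by -1.48 (adjusted p 0.0988 without and 0.000222 with it). Cd14 was not called with or without the block. The summed leukocyte markers read 1361 to 2613 on the unstimulated, 916 to 2496 on the 6 h and 1368 to 1753 on the tolerant arrays, and Ptprc, the pan-leukocyte marker, was below log2 4 throughout. The part of these marker changes in the results for glycolysis and hypoxia-response genes was not tested.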

How the data were processed

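The authors deposited a linear intensity for each probe set on each array. The submitters' processing notes name GCRMA, with no version in the sources used here. This method subtracts a sequence-based background estimate and scales the arrays to each other, and differences between values near its floor are compressed and carry no order. Per the labels' protocols total RNA was isolated with TRIzol, and biotin was the label.

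The deposited intensity values were log2-transformed, with no pseudocount, and the level rule was applied on this scale. Of 45101 probe sets, 34958 carried 1 gene symbol in the platform annotation, which can be old, 932 several and 9211 none. A gene with several probe sets was represented by the brightest on average over the 9 arrays. The 64 control probe sets were left out except for Gapdh, which had only 3 of these. Differences came from limma 3.58.1 in R 4.3.3, with 1 mean for each condition in a single fit of 9 arrays, 6 residual degrees of freedom, eBayes without trend and two-sided tests, adjusted by Benjamini-Hochberg over 9432 genes within each of 3 comparisons. An SE or interval is the moderated one from this fit. Where all 3 arrays of the lower group were below log2 4, a fold is a lower bound against log2 4.

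Every tested gene of the 43 was named. Values on every array were given for those called in a comparison and for Hif1a, Arnt and Vegfa. From the other lists the 3 largest changes among called genes were named. The genes, lists and rules were chosen with earlier results of these data known.

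The groups share replicate numbers without the labels saying what a number shares. Deviations from the condition means, correlated across genes, were 0.157 to 0.844 for same-numbered arrays, above 0.1 in every pair, and -0.743 to -0.375 between replicate 1 and the others. Arrays numbered 2 and 3 correlated at 0.214 to 0.731, so the check cannot separate pairing from an offset of replicate 1 alone. For the 43 genes and the markers, values with the number as a block are printed where they change a call and for the other lists mainly as counts. The counts without genes at the level minimum in 1 condition alone were added after seeing the data. The steps were tested on simulated data. Promoters and their positions came from RefSeq, where 40 of 43 symbols matched.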

Additional observations from a re-analysis of the deposited data

How the results depend on the processing

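The alternatives changed the filter, the choice of probe set, the normalization, the floor, eBayes, the set of arrays and the replicate block. The 18 calls of the 36 genes, those of Pfkfb4 included, gave 374 values, of which 309 stayed called, 65 did not and none changed sign. The 90 uncalled differences gave 1885 values, of which 58 became called, 22 moved by more than the spread between replicates and 101 changed sign. The number of genes higher after 6 h of LPS, 0, became 3 with the replicate block and 3 with a block of replicate 1 against the others, and the number lower became 4 and 5. Of all genes, 6 were called at 6 h, and 37 without a filter, 14 with the mean of all probe sets, 2267 with the replicate block and 2744 with the block of replicate 1. Genes lower in tolerant than in unstimulated cells numbered 2, which became 1 without a filter and 1 on the mean of probe sets. On the probe set with the largest spread 1 was lower, and it was another gene. There Ndrg1 was not called, and Hif1an reached log2 4 on only 2 arrays and was not tested. The number became 9 with the replicate block and 9 with the block of replicate 1. Calls over all genes went from 2470 to 4586 and 4809 with these blocks, and from 1238 to 2985 and 3192 for tolerant against 6 h. The 8 genes higher than at 6 h became 5 without a filter and 4 in a separate fit. The 1 lower, Hif1an, became 0 on the probe set with the largest spread, where it was not tested, and 0 in a separate fit. Leaving out arrays gave 0 to 1 lower and 5 to 696 calls over all genes at 6 h. It gave 4 to 8 higher, 1 to 4 lower and 1400 to 3608 calls over all genes for tolerant against unstimulated cells. For tolerant against 6 h it gave 3 to 11 higher, 0 to 1 lower and 677 to 2127 calls. Without 6 h LPS replicate 3, 696 genes were called at 6 h and 1 of the 36 as lower. For tolerant against unstimulated cells the calls over all genes were 1515 without unstimulated replicate 2 and 1400 and 1544 without tolerant replicate 2 and 3. Against 6 h of LPS such calls numbered 766, 677 and 704 without tolerant replicate 1, 2 and 3, and 2127 without all 3 arrays of replicate 1. A fit that leaves 2 arrays in a group pools the spread over all groups, and the cause of these changes was not tested. The calls of Hk2 in both comparisons, of Hif1an against unstimulated cells and of Egln3 against 6 h were lost in none. A minimum of log2 5 gives no value for Pfkfb4, and the probe set with the largest spread gives none for Hif1an. Signal over background limits Pfkfb4, Pfkp, Epas1, Car9 and Adm.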
